A study of Homo sapiens with 16 samples.

Results

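The response of U937, a human promonocytic leukaemia line, to NEL was read from polyadenylated RNA in 4 libraries of cells treated with NEL at 10 µM and 4 of cells given the vehicle DMSO. These are 8 of the 16 libraries of a study that treated U937 and KG1A, a more immature leukaemia line, in the same way. Every gene that passed a filter on low counts within the 8 U937 libraries was kept, which left 14390 of the 34618 gene IDs in the table. Both groups grew in RPMI medium with dialyzed serum and carried no genetic change that the labels name. The labels give no treatment time, nor do they tell if the 4 libraries within a group are independent cultures. P-values are thus set against the library-to-library spread alone, and part or all of that may be technical. NEL is taken to be nelarabine from knowledge of the published study, since the labels do not spell it out.

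Nelarabine is a prodrug that adenosine deaminase turns into arabinosylguanine, which deoxycytidine kinase and deoxyguanosine kinase phosphorylate to a nucleotide that DNA polymerases incorporate. Ribonucleotide reductase, a complex of the RRM1 subunit with RRM2 or RRM2B, makes the natural deoxynucleotides with which that analogue competes, and SAMHD1 hydrolyses both. U937 cells are arrested at a promonocyte stage, make primary granule proteases, grow with high MYC activity, and can be driven to macrophage-like maturation by several agents.

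Read totals were 11524192 to 11777684 with DMSO and 11157449 to 11403031 with NEL, so that a gene without reads in one library can still be at up to 0.255 to 0.269 CPM (here reads per library total), counting error alone considered. CPM of single genes with NEL and DMSO are scaled by TMM library factors as well, and summed CPM of markers are not. The first principal component (88.5% of the variance) separated NEL from DMSO, and the second (5.88%) separated libraries 1 and 3 from 2 and 4 within both groups. Library pairs within a set differed by a chi-square of 1.26 to 1.98 per degree of freedom, and pairs across sets by 4.90 to 7.57, so no library was a copy of another. The line's markers were present in both groups, with 970 to 1297 reads of CD33, 2030 to 3312 of CD4 and 4377 to 11681 of PRTN3 per library. CD68, CD14 and MPO were close to 0, at 1 to 9, 1 to 5 and 4 to 7 reads per library. Of 12 T cell markers none passed the filter (their sum was 1.15 to 1.94 CPM in every library), and no haemoglobin read was seen for HBA1, HBA2, HBB or HBG1. B cell markers summed to 29.95 to 36.01 CPM with DMSO and 59.7 to 67.1 with NEL, with CD79A and EBF1 among those higher, and their part in the results below was not tested. All values are relative to the library total, so fewer cells of a type and less RNA per cell cannot be told apart.

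Most measured genes differed between NEL and DMSO. By edgeR's quasi-likelihood test, adjusted after Benjamini and Hochberg, 4985 genes were higher with NEL (34.6% of those tested) and 4993 were lower (34.7%) at an adjusted p under 0.05. Of the 4412 genes that were not called, 330 had an unadjusted p under 0.05. In 8978 of the 14390 genes tested the 2 groups of libraries did not overlap. Apart from a fixed set, genes named by rule were picked among these, so their lack of overlap was set by the choice. The change was lopsided in size: 1252 of the higher genes rose at least 2-fold and 344 at least 4-fold, against 510 and 23 of the lower genes. The median size of a called change was 0.53 on the log2 scale, and the median over all genes was -0.004. That last median and the even split of calls depend on the scaling by TMM factors. With upper quartile factors the median over all genes was 0.053, and 55.4% of calls were higher. With limma-trend on log2(RPKM + 0.5) the values were 0.074 and 58.8%. The shares of 34.6% and 34.7% are the background for each gene list described here, and the tests below are from this same fit unless another is named. Log2 fold changes are given ± their standard error, and group levels as mean ± SD of 4 libraries. Values of some genes named below are uncertain since a gene on the opposite strand, with at least 10% of their reads, overlaps them: ADGRG3, ADM5, ALDOC, APLP1, ATG3, BMF, BPI, CALR, CCNE2, CD82, CEBPA, CPT2, DCTPP1, DDIT4, DGUOK, GAPDH, GINS2, HLA-DMA, HSPA1A, KIF20A, MAX, MNT, NDUFB6, NT5C, PC, PHLDA1, PLP2, RPE, SLC16A3, SLC19A1, STARD4, STEAP3 and WARS1, besides those marked at their values.

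**Figure D1:**
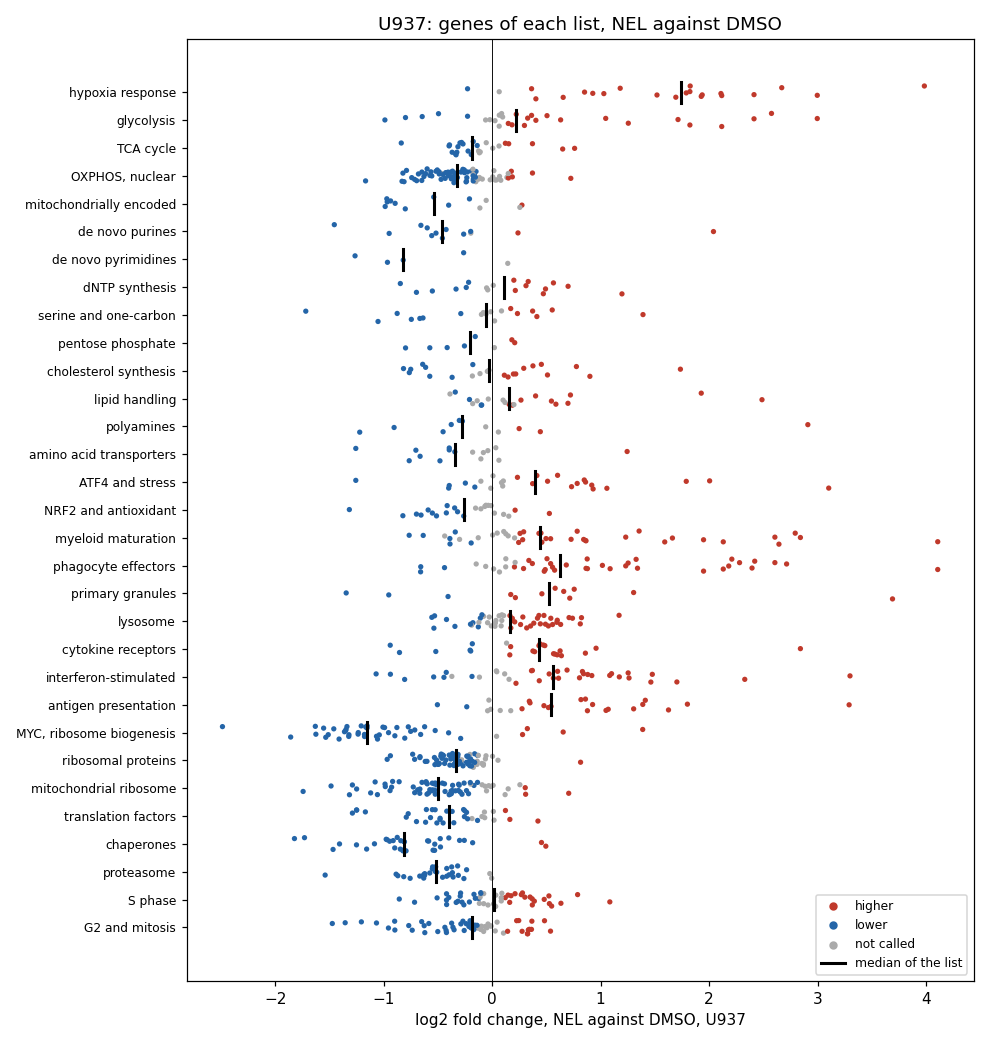
Log2 fold change of NEL against DMSO in U937 (x axis) for every tested gene of 31 lists (rows); each point is 1 gene, red where higher, blue where lower and grey where not called at an adjusted p under 0.05, and the black bar is the median of the list. The hypoxia response list has the highest median (1.74) and the list of MYC and ribosome biogenesis genes the lowest (-1.15) of the lists drawn.

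Genes of the hypoxia response had the highest median change of the 31 lists drawn. Of 22 tested members, 20 rose and 1 fell, 15 rose at least 2-fold, and the median log2 fold change was 1.74. These are genes that hypoxia-inducible factors are known to activate. ADM (adrenomedullin, chr11:10326200-10328900 in GRCh37 as deposited) read 2.59, 2.57, 2.40 and 2.56 CPM with DMSO and 38.4, 44.2, 37.4 and 40.5 CPM with NEL, which is 15.8-fold higher (log2 fold change 3.98 ± 0.098, adjusted p = 1.01e-12). All NEL libraries were far above all DMSO libraries, which lay close together. Of further members, chosen after their values were seen, NDRG1 rose by 2.67 on the log2 scale, P4HA1 (a collagen prolyl hydroxylase subunit) by 2.11, BNIP3L and BNIP3 (mitophagy receptors) by 1.94 and 1.83, and PDK1, the kinase that shuts pyruvate dehydrogenase, by 1.82. VEGFA rose by 0.85 and the oxygen sensor EGLN1 by 0.93. The member that fell was PFKFB3 (log2 -0.23, adjusted p = 0.00234), and PGK1 was not called (log2 0.065).

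The promoters of ADM and PFKFB4, the members with the largest changes, are shown for the core letters of the hypoxia-inducible factor site, ACGTG or GCGTG on either strand, which were added after the data were seen. The 250 bases before each start are printed 5′ to 3′ on the gene's strand, from RefSeq on GRCh38.p14, with matches in capitals.
ADM (chr11:10304823-10305072, plus strand): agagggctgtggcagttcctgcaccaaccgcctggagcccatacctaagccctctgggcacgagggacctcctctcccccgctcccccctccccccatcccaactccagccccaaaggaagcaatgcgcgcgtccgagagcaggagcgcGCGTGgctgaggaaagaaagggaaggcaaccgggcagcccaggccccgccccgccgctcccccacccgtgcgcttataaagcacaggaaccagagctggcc
PFKFB4 (chr3:48556804-48557053, minus strand): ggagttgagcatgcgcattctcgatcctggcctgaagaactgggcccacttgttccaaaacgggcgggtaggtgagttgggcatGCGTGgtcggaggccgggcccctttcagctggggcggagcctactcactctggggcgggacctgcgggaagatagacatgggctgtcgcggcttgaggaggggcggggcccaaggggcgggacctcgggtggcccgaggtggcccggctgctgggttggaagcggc
Only members with these letters in the 250 bases could be printed, so the presence of a match was set by the choice. Each holds 1 match, a GCGTG whose first base lies 101 bases before the start in ADM and 166 before it in PFKFB4. In windows of 250 bases before to 50 after the start, 15 of 17 hypoxia members with a sequence held these letters (88.2%), against 63.0% of 10344 tested genes. The same letters were in 32 of 37 promoters of the MYC and ribosome biogenesis list (86.5%), which mostly fell, and in 67.7% of promoters of genes called lower against 59.0% of those called higher. Such short letters are common, and a match describes the sequence only.

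Glycolysis genes were mostly higher. Of 29 tested genes 17 rose and 5 fell, with a median of 0.22, and 8 rose at least 2-fold. PFKFB4 is counted both here and in the hypoxia list, so the 2 lists are not separate observations. SLC2A3 (the glucose transporter GLUT3, chr12:8071830-8088870) read 37.9, 34.2, 38.3 and 35.4 CPM with DMSO and 224, 209, 214 and 223 CPM with NEL. Its NEL libraries were all higher, by 5.96-fold (log2 fold change 2.57 ± 0.049, adjusted p = 1.27e-13). HK2, the inducible hexokinase that traps glucose in the cell (chr2:75061100-75120500), read 133, 138, 134 and 139 CPM with DMSO and 430.5, 464, 437 and 455 CPM with NEL, a 3.28-fold rise (log2 fold change 1.71 ± 0.041, adjusted p = 6.70e-13). PFKFB4, which sets the level of the activator of phosphofructokinase (chr3:48555100-48599400), read 18.1, 16.9, 20 and 18.2 CPM with DMSO and 155, 139, 147 and 144 CPM with NEL, 7.98-fold higher (log2 fold change 3.00 ± 0.059, adjusted p = 1.27e-13). In each of these 3 genes the spread within a group was small beside the distance between groups, and no library of one group entered the range of the other.

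The isozymes ENO2 and ALDOC rose by 2.41 and 2.12 on the log2 scale, while their main counterparts moved little (ENO1 0.065, not called, and ALDOA 0.22, called). Those genes were chosen after their values were seen, as were GAPDH (log2 0.026) and TPI1 (-0.021), neither of which was called. PFKFB3, a paralogue of PFKFB4, fell, as given above. LDHA, which makes lactate, went from 939 ± 34.9 CPM with DMSO to 1208 ± 30.5 CPM with NEL (log2 fold change 0.36 ± 0.041, adjusted p = 2.30e-06). The lactate exporter SLC16A1 fell from 241 ± 8.16 CPM with DMSO to 122 ± 4.31 CPM with NEL (log2 fold change -0.99 ± 0.042, adjusted p = 1.72e-10), and SLC16A3 also fell (log2 -0.65). TIGAR, a phosphatase that lowers the phosphofructokinase activator, fell (log2 -0.80). In the pentose phosphate pathway 5 of 8 genes fell and 2 rose, among them TALDO1 (transaldolase, 278 to 159.6 CPM, log2 -0.80) and RPIA (-0.57), with RPE higher (0.18).

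**Figure D2:**
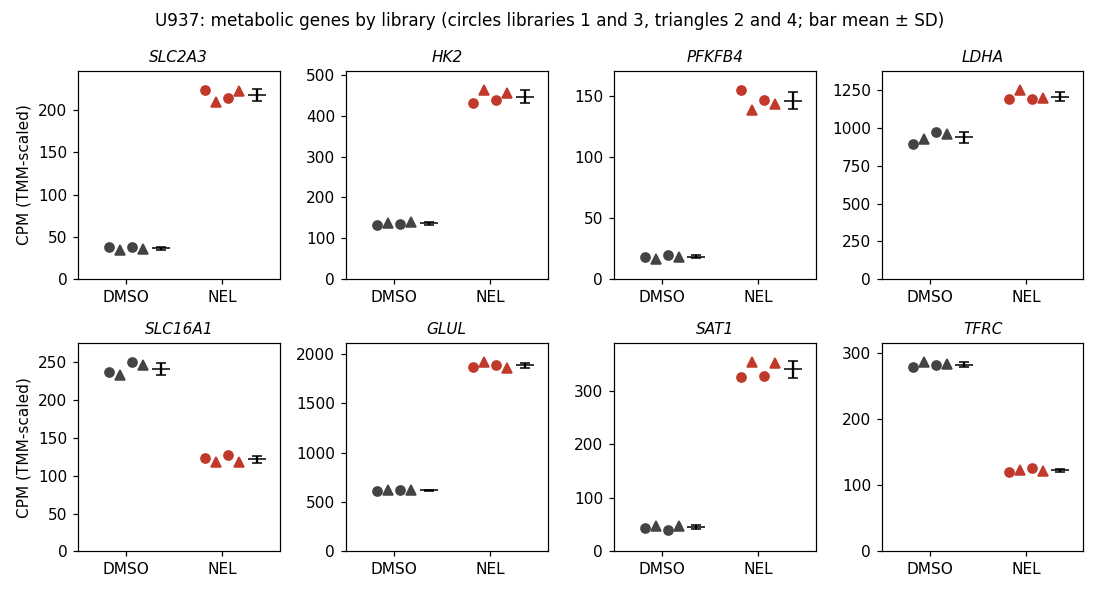
CPM (y axes, starting at 0) of 8 metabolic genes in each U937 library with DMSO (grey) and NEL (red); circles are libraries 1 and 3, triangles libraries 2 and 4, and the bar with caps is the mean ± SD of 4 libraries. In all 8 genes the groups do not overlap; SLC2A3, HK2, PFKFB4, LDHA, GLUL and SAT1 are higher with NEL, and SLC16A1 and TFRC are lower.

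Genes of mitochondrial respiration were mostly lower, by smaller amounts. Of 75 nuclear genes of the respiratory chain 52 fell and 5 rose (3 rose without DMSO library 1 or 3, 2 without NEL library 2; median -0.32), and of 26 genes of the citric acid cycle and pyruvate entry 15 fell and 5 rose (median -0.18). ATP5MC1, a subunit of the rotor ring of ATP synthase, fell from 94.1 ± 5.65 CPM with DMSO to 41.9 ± 3.34 CPM with NEL (log2 fold change -1.17 ± 0.063, adjusted p = 1.56e-09), and the complex I subunit NDUFB6 fell to a log2 fold change of -0.83. PC (pyruvate carboxylase) read 45.4, 49.9, 41.6 and 45.7 CPM with DMSO and 23.1, 27.1, 25.5 and 26.5 CPM with NEL, lower in all NEL libraries (log2 fold change -0.84 ± 0.070, adjusted p = 1.15e-07). SDHA (log2 0.37), NDUFB5 (0.19), MDH1 (cytosolic malate dehydrogenase, 0.65) and IDH2 went the other way. IDH2, the mitochondrial NADP-dependent isocitrate dehydrogenase, read 244, 246, 236 and 236 CPM with DMSO and 410.2, 412, 410.2 and 397 CPM with NEL, with every NEL library higher (log2 fold change 0.76 ± 0.037, adjusted p = 5.25e-10).

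Of the 13 genes encoded in mitochondrial DNA, 9 fell and 1 (MT-ND5) rose (2 rose with same-numbered libraries as a block), with a median of -0.54. MT-ND1, a complex I subunit, read 5601, 4622, 6287 and 4982 CPM with DMSO and 3062, 2427, 2887 and 2472 CPM with NEL (log2 fold change -0.99 ± 0.093, adjusted p = 4.28e-07), and all NEL libraries were below all DMSO libraries. MT-CO1 read 17400.0, 14820.0, 18910.0 and 15410.0 CPM with DMSO and 15970.0, 13390.0, 15210.0 and 12990.0 CPM with NEL. Here the groups overlapped, and the call (log2 -0.21, adjusted p = 0.0339) was lost without DMSO library 1 or 3 (adjusted p = 0.0750 and 0.103) and without NEL library 2 or 4 (0.0882 and 0.102). The mitochondrial share of all reads was 7.09 to 9.33% with DMSO and 5.89 to 7.29% with NEL, and was higher in libraries 1 and 3 than in 2 and 4 of both groups. The genes for the mitochondrial ribosome fell with them: 58 of 71 were lower and 3 higher (median -0.50), with MRPL1 falling from 32.3 to 9.66 CPM (log2 -1.74) and MRPS6 among those that rose (0.71).

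Among genes for the uptake, activation and removal of nucleosides, 9 of 20 rose (45%, beside 34.6% of all genes) and 6 fell (30%, beside 34.7%). SLC29A1, the ENT1 transporter that carries nucleoside drugs into cells, read 327, 307, 338 and 298 CPM with DMSO and 222, 197, 207 and 177 CPM with NEL, lower in all NEL libraries (log2 fold change -0.66 ± 0.063, adjusted p = 4.62e-07). The concentrative transporter SLC28A3 rose from 14.8 to 32.4 CPM (log2 1.13), and SLC29A3, an intracellular nucleoside transporter, rose from 8.61 to 20.8 CPM (log2 1.27). DCK, deoxycytidine kinase, read 85.8, 86.8, 83.3 and 95.2 CPM with DMSO and 124, 123, 119.8 and 121 CPM with NEL, with no overlap (log2 fold change 0.47 ± 0.046, adjusted p = 6.32e-07). The mitochondrial deoxyguanosine kinase DGUOK overlapped between groups, at 41.2 ± 3.88 CPM with DMSO and 39.8 ± 4.29 CPM with NEL (log2 -0.051, adjusted p = 0.593). ADA rose slightly (115 to 131 CPM, log2 0.19). It overlaps PKIG on the opposite strand, and how the counting treated strands is not given in the sources used here. NME1, a nucleoside diphosphate kinase, fell from 93.9 ± 1.39 CPM with DMSO to 34.9 ± 1.13 CPM with NEL (log2 fold change -1.43 ± 0.045, adjusted p = 1.13e-11), and the nucleotidase NT5C fell by 1.96-fold.

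Genes that make deoxynucleotides did not move as a block: 9 of 18 rose and 6 fell (median 0.10). RRM2, the regulated reductase subunit, was the only member with a rise of at least 2-fold (log2 fold change 1.20 ± 0.039, adjusted p = 1.76e-11). It read 601, 624, 608 and 654 CPM with DMSO and 1423, 1440.0, 1413 and 1423 CPM with NEL, so the groups were far apart. RRM1 read 234, 234, 234 and 254 CPM with DMSO and 299, 304, 294 and 305 CPM with NEL, also without overlap (log2 fold change 0.33 ± 0.040, adjusted p = 5.12e-06), while RRM2B overlapped and was not called (log2 -0.041, adjusted p = 0.546). SAMHD1 rose from 10.3 ± 0.769 CPM with DMSO to 14.4 ± 1.01 CPM with NEL (log2 fold change 0.49 ± 0.090, adjusted p = 2.28e-04), and TYMS, thymidylate synthase, by 1.15-fold (log2 0.20). TYMS overlaps ENOSF1, and SAMHD1 overlaps TLDC2, on the opposite strand. Thioredoxin (TXN, log2 -0.70), which can supply electrons to the reductase, fell, and glutaredoxin (GLRX, 0.70), which serves the same role, rose. DCTPP1, which degrades deoxycytidine triphosphate and its analogues, fell from 82.1 to 45.6 CPM (log2 -0.85).

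Genes for the new synthesis of bases were mostly lower. In the purine pathway 10 of 13 genes fell and 2 rose (median -0.46), and in the pyrimidine pathway 4 of 5 fell and none rose (1 rose without NEL library 1; median -0.82; CTPS2 was not called, log2 0.14). PFAS, which catalyses the fourth step to the purine ring, read 106, 95.9, 99.9 and 101 CPM with DMSO and 38.4, 37.5, 38.1 and 32.6 CPM with NEL, 2.74-fold lower (log2 fold change -1.46 ± 0.057, adjusted p = 7.45e-11). It overlaps CTC1 on the opposite strand. ADSL, which acts late in the same pathway, fell from 101 ± 6.47 CPM with DMSO to 52.1 ± 2.03 CPM with NEL (log2 fold change -0.95 ± 0.054, adjusted p = 2.72e-09). UMPS, which makes uridine monophosphate, read 43.1, 47.4, 43.5 and 48.04 CPM with DMSO and 17.4, 19.99, 18.3 and 20.1 CPM with NEL (log2 fold change -1.26 ± 0.068, adjusted p = 1.55e-09), and DHODH, the mitochondrial enzyme before it, fell by 1.95-fold (log2 -0.97). In all 4 genes the groups did not overlap, which was a condition for naming them. The members that rose were PRPS2 (log2 0.24) and ADSS1 (2.04), an isozyme of the step to adenylosuccinate.

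Of 19 genes for serine and folate metabolism 6 rose (31.6%) and 7 fell (36.8%), near the background (median -0.056). PHGDH, the first enzyme of serine synthesis, read 264, 287, 255 and 277 CPM with DMSO and 349, 376, 344 and 371 CPM with NEL, higher with NEL (log2 fold change 0.41 ± 0.048, adjusted p = 3.21e-06). SHMT1 also rose (log2 0.55), as did AMT (1.39), a part of the glycine cleavage system. SLC25A32, which carries folate into mitochondria, fell from 83.7 ± 1.15 CPM with DMSO to 40.4 ± 3.09 CPM with NEL (log2 fold change -1.05 ± 0.055, adjusted p = 1.11e-09; it overlaps DCAF13 on the opposite strand), and the folate carrier SLC19A1 fell by 1.84-fold.

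Genes for amino acid uptake mostly fell, while the gene for glutamine synthetase rose. Of 15 amino acid transporters 8 fell and 1 rose (median -0.34). SLC7A5, the light chain of the main leucine importer, read 441, 351, 436 and 336 CPM with DMSO and 180.5, 146, 182 and 145 CPM with NEL (log2 fold change -1.26 ± 0.099, adjusted p = 6.66e-08). It was high in libraries 1 and 3 of both groups, and all NEL libraries were still below all DMSO libraries. The glutamine importer SLC1A5 fell from 507 ± 26.6 CPM with DMSO to 298 ± 17.4 CPM with NEL (log2 fold change -0.76 ± 0.051, adjusted p = 1.23e-08), and SLC7A7 rose (5.79 to 13.7 CPM). GLUL, glutamine synthetase, read 614, 618, 616 and 620.5 CPM with DMSO and 1868, 1916, 1889 and 1859 CPM with NEL, a 3.05-fold rise (log2 fold change 1.61 ± 0.036, adjusted p = 4.17e-13). The DMSO libraries differed by less than 1% of their mean, and no NEL library came near them. GFPT1, which feeds glutamine nitrogen into hexosamines, rose by 1.79-fold, while ALDH18A1, the first enzyme from glutamate to proline, fell by 1.43-fold. PYCR3, which ends proline synthesis, was among the 10 largest falls of genes without overlap and with at least 5 CPM in the higher group (15.5 to 4.25 CPM, log2 -1.87).

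Among polyamine genes the largest rise was in the breakdown arm and the largest falls were in the synthesis arm. SAT1, the acetyltransferase that marks polyamines for export and oxidation, read 43.7, 48.2, 40.9 and 48.04 CPM with DMSO and 326, 354, 328 and 352 CPM with NEL, 7.51-fold higher with no overlap (log2 fold change 2.91 ± 0.058, adjusted p = 1.27e-13). SRM, spermidine synthase, fell from 337 ± 17.8 CPM with DMSO to 145 ± 8.93 CPM with NEL (log2 fold change -1.22 ± 0.053, adjusted p = 1.75e-10), AMD1 fell by 1.87-fold, and ODC1, the first enzyme, fell by 1.21-fold (log2 -0.27, adjusted p = 7.43e-05). Over the list 3 of 11 rose and 6 fell. Genes of the ATF4 stress response rose in 15 of 26 cases and fell in 5 (median 0.39). NUPR1 rose from 1.77 ± 0.374 CPM with DMSO to 15.3 ± 2.04 CPM with NEL (log2 fold change 3.10 ± 0.16, adjusted p = 8.75e-10) and DDIT4, an inhibitor of mTORC1 that is also a hypoxia target, from 55.5 ± 4.57 CPM with DMSO to 192 ± 8.01 CPM with NEL (log2 fold change 1.79 ± 0.058, adjusted p = 1.37e-11). The list's namesake ATF4 fell (log2 -0.40), and ASNS, asparagine synthetase, was not called (log2 0.10, adjusted p = 0.181; upper quartile scaling gave an adjusted p = 0.0403). TXNIP was not analysed here, and of 5 related genes ARRDC3 rose (3.61 to 10.1 CPM) and 2 fell; without DMSO library 1, 2 rose.

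Of 21 genes for lipid storage, transport and oxidation 10 rose and 4 fell (7 fell with the replicate block), with a median of 0.16. PLIN2, which coats lipid droplets, read 47.6, 50.96, 48.8 and 44.9 CPM with DMSO and 270.4, 264, 265 and 279 CPM with NEL, 5.61-fold higher (log2 fold change 2.49 ± 0.047, adjusted p = 1.24e-13). HILPDA, an inhibitor of lipolysis, rose from 10.9 ± 0.805 CPM with DMSO to 41.3 ± 2.47 CPM with NEL (log2 fold change 1.93 ± 0.075, adjusted p = 7.02e-11). In neither gene did a NEL library approach the DMSO range. These were the 2 largest rises of the list, and among those that fell were CD36 (log2 -0.34) and CPT2 (-0.21). Fatty acid synthesis was divided, with 4 of 12 genes higher and 7 lower: FASN fell from 579 ± 41.8 CPM with DMSO to 345 ± 15.4 CPM with NEL (log2 fold change -0.75 ± 0.053, adjusted p = 2.67e-08), and SCD (log2 0.50) and ACSS2, which activates acetate (1.32), rose. Cholesterol synthesis was divided too, with 11 of 23 higher and 8 lower. The sterol transfer protein STARD4 rose from 38.5 to 128 CPM (log2 1.74).

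Of 24 iron and heme genes 9 rose (37.5%) and 8 fell (33.3%), near the background. TFRC, the transferrin receptor for iron uptake, read 278, 286, 282 and 282 CPM with DMSO and 120.5, 124, 126 and 121 CPM with NEL, 2.30-fold lower (log2 fold change -1.20 ± 0.037, adjusted p = 8.27e-12). FTH1, the ferritin heavy chain for iron storage, rose from 327 ± 9.54 CPM with DMSO to 645 ± 13.5 CPM with NEL (log2 fold change 0.98 ± 0.038, adjusted p = 7.14e-11). FTL, the light chain, fell from 4395 ± 81.2 CPM with DMSO to 3146 ± 65.9 CPM with NEL (log2 fold change -0.48 ± 0.038, adjusted p = 7.27e-08). Each of the 3 genes separated the groups fully, which was a condition for naming them. Both ferritin genes have near-identical pseudogene copies and FTH1 overlaps BEST1, so their counts are uncertain. STEAP3, an iron reductase, fell (log2 -0.93) and the mitochondrial iron importer SLC25A37 rose (0.77). Of 23 antioxidant genes known as targets of NRF2, 12 fell and 2 rose (median -0.26). GCLM, for glutathione synthesis, fell from 96.03 to 54.3 CPM (log2 -0.82) and catalase (CAT) rose (0.53).

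The list with the lowest median was that of MYC and ribosome biogenesis. MYC, the growth-promoting transcription factor, read 442, 433, 449 and 437 CPM with DMSO and 81.04, 74.7, 80.8 and 77.7 CPM with NEL, 5.60-fold lower (log2 fold change -2.49 ± 0.042, adjusted p = 6.21e-14), and the groups stood far apart. Of 45 genes 40 fell, 27 of them at least 2-fold, and 4 rose (median -1.15). RRS1, a ribosome assembly factor, read 66.98, 75.8, 64.1 and 68.05 CPM with DMSO and 19.2, 20.7, 16.4 and 19.5 CPM with NEL (log2 fold change -1.86 ± 0.074, adjusted p = 8.56e-11). The 4 that rose were MXD1 (14.4 to 37.7 CPM, log2 1.39), MXI1 (0.65), MXD4 (0.32) and MNT (0.28), which bind the same partner as MYC and oppose it. MAX, that partner, was not called (log2 0.040). Of members chosen after their values were seen, the nucleolar proteins NCL and NPM1 fell to log2 fold changes of -1.18 and -0.88, and POLR1B, a core subunit of RNA polymerase I, to -1.53. WDR4, a tRNA methyltransferase subunit, was also among the 10 largest falls under those limits of level and overlap (40.9 to 10.6 CPM).

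Promoters of the MYC and ribosome biogenesis list held the E-box CACGTG, the letters bound by MYC with MAX, in 13 of 37 cases (35.1%). The share was 10.2% of 10344 tested genes, over the same windows and both strands. CACGTG contains ACGTG, so it also counts among the hypoxia core letters above. Shown are UTP20 (log2 -1.51) and NAT10 (-0.81), 2 members that fell and whose 250 bases before the start hold an E-box, again from RefSeq on GRCh38.p14 with the E-box in capitals.
UTP20 (chr12:101279855-101280104, plus strand): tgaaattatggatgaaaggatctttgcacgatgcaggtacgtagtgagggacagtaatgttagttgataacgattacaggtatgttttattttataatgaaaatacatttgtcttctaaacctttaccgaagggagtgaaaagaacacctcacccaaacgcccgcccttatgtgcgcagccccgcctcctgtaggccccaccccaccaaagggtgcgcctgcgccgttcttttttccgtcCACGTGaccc
NAT10 (chr11:34105379-34105628, plus strand): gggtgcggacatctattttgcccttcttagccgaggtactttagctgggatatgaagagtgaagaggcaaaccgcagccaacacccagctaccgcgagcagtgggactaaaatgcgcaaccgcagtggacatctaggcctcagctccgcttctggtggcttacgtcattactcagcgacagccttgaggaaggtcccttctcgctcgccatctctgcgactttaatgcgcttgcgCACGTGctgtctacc
The E-box begins 10 bases before the start in UTP20 and 15 before it in NAT10.

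Genes for the rest of the machinery of protein synthesis and folding were mostly lower as well. Of 78 cytosolic ribosomal protein genes 64 fell and 1 rose, by small amounts (median -0.33, none by 2-fold). The 1 that rose, RPS27 (4.19 to 7.37 CPM), and RPS26, which fell most, have near-identical copies and few assigned reads, so their values are uncertain. Translation factors fell in 25 of 34 cases and rose in 3 (median -0.39). EIF4G1, the scaffold of cap-dependent initiation, read 791, 835, 805 and 831 CPM with DMSO and 338, 341, 321 and 334 CPM with NEL (log2 fold change -1.29 ± 0.039, adjusted p = 7.71e-12). EIF5A fell from 673 to 283 CPM (log2 -1.25) and EIF1 rose (0.42). Of 16 tRNA synthetases 11 fell and 3 rose, among them VARS1 (log2 -0.93) on one side and WARS1 (0.93) and AARS1 (0.60) on the other.

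Chaperones fell in 31 of 33 cases (median -0.81). HSPA8, the constitutive HSP70, read 2507, 2629, 2607 and 2821 CPM with DMSO and 776, 826, 769 and 814 CPM with NEL, 3.32-fold lower (log2 fold change -1.73 ± 0.047, adjusted p = 3.14e-12), and the groups did not overlap. HSPA1A, the inducible form, fell from 17.6 ± 2.67 CPM with DMSO to 4.95 ± 0.649 CPM with NEL (log2 fold change -1.82 ± 0.13, adjusted p = 2.83e-08), but it has a near-identical neighbour, HSPA1B. All 8 tested subunits of the chaperonin ring for actin and tubulin fell, from -1.09 (CCT6A) to -0.26 (CCT8) on the log2 scale; they were singled out after their values were seen. DNAJB4 (0.49) and BAG3 (0.45) rose. Of 30 proteasome genes 28 fell and none rose (median -0.52), with PSMC1 and PSMA6 not called at log2 fold changes of -0.022 and -0.005. PSMD1, a base subunit of the regulatory particle, fell from 191 ± 10.9 CPM with DMSO to 65.8 ± 3.91 CPM with NEL (log2 fold change -1.54 ± 0.054, adjusted p = 3.06e-11). Of 26 genes of the endoplasmic reticulum stress response 13 fell and 6 rose. XBP1 fell from 273 to 165 CPM (log2 -0.73), while its activator ERN1 rose (1.19).

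Genes of monocyte and macrophage maturation were mostly raised. Of 40 maturation genes 25 rose and 6 fell (median 0.44), and of 40 genes for phagocyte adhesion, receptors and oxidant production 30 rose and 3 fell (median 0.63). The lists share members. ITGAX, the CD11c integrin chain (chr16:31366500-31394300), read 4.28, 3.81, 4.18 and 3.44 CPM with DMSO and 67.4, 64.5, 69.4 and 69.98 CPM with NEL, 17.2-fold higher (log2 fold change 4.11 ± 0.076, adjusted p = 1.24e-13). ITGAM, the CD11b chain (chr16:31271300-31344200), read 9.72, 9.11, 7.82 and 8.46 CPM with DMSO and 56.3, 54.2, 50 and 53.5 CPM with NEL (log2 fold change 2.61 ± 0.075, adjusted p = 5.01e-12). CSF1R, the receptor for macrophage colony-stimulating factor, read 3.21, 2.39, 2.76 and 2.38 CPM with DMSO and 19.98, 18.5, 19.8 and 18.9 CPM with NEL (log2 fold change 2.84 ± 0.11, adjusted p = 5.57e-11). None of the 3 genes had overlapping groups, and all DMSO libraries were below 10 CPM.

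**Figure D3:**
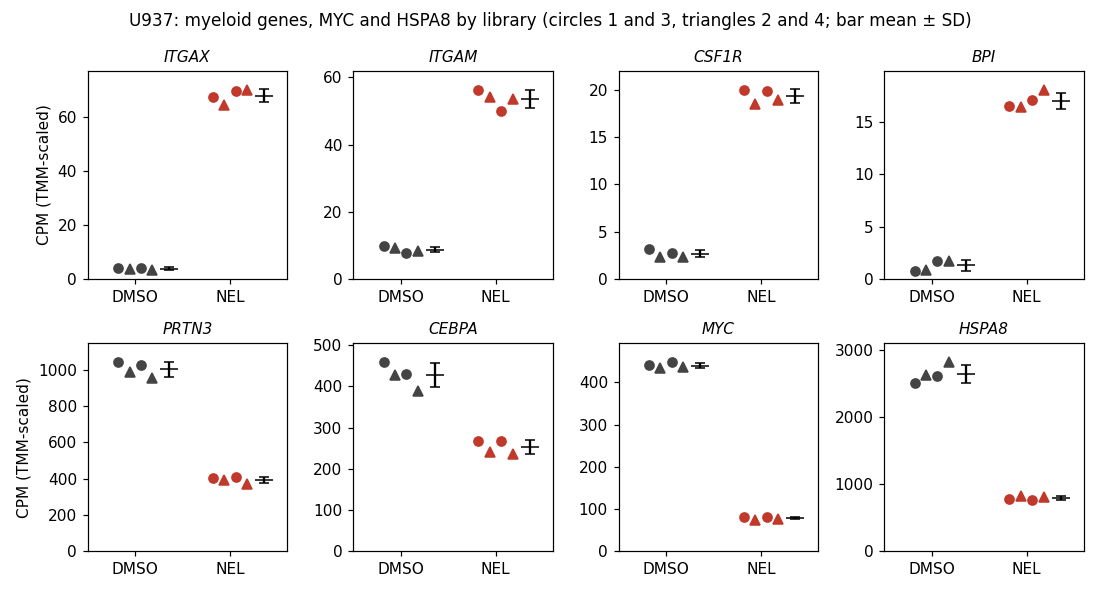
CPM (y axes, starting at 0) of 6 myeloid genes, MYC and HSPA8 in each U937 library with DMSO (grey) and NEL (red); circles are libraries 1 and 3, triangles libraries 2 and 4, and the bar with caps is the mean ± SD of 4 libraries. ITGAX, ITGAM, CSF1R and BPI are higher with NEL, PRTN3, CEBPA, MYC and HSPA8 are lower, and no gene has overlapping groups.

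Members chosen after their values were seen were the oxidase genes CYBB (log2 2.13) and NCF1 (1.95, which has near-identical pseudogene copies), the complement receptor C5AR1 (2.64) and the fungal receptor CLEC7A (2.79), which all rose. CYBA, the partner of CYBB, was not called (log2 -0.15). CD14 did not pass the filter, at 1 to 5 reads per library in both groups. SIRPA (log2 -0.39), THBD (-0.77) and ITGA5 (-0.44) fell. The calcium-binding and cytoskeletal genes included VIM (vimentin), which read 87.9, 83.6, 88.7 and 85.9 CPM with DMSO and 575, 538, 552 and 545 CPM with NEL, 6.38-fold higher (log2 fold change 2.67 ± 0.042, adjusted p = 5.11e-14). It overlaps VIM-AS1 on the opposite strand. ANXA1, annexin A1, rose from 47.3 ± 1.93 CPM with DMSO to 176 ± 12.1 CPM with NEL (log2 fold change 1.89 ± 0.056, adjusted p = 6.08e-12), while LGALS9 (log2 -0.66) and the lamin LMNB2 (-0.64) fell. In that list 19 of 30 rose and 8 fell.

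Primary granule genes split by gene. PRTN3, proteinase 3, read 1042, 988, 1025 and 952 CPM with DMSO and 402, 394, 409 and 371 CPM with NEL, 2.54-fold lower (log2 fold change -1.35 ± 0.045, adjusted p = 1.86e-11), and ELANE, neutrophil elastase, fell from 411 ± 29.96 CPM with DMSO to 212 ± 6.78 CPM with NEL (log2 fold change -0.95 ± 0.052, adjusted p = 1.69e-09). BPI, a bactericidal granule protein, read 0.803, 0.885, 1.78 and 1.76 CPM with DMSO and 16.5, 16.4, 17.1 and 18.1 CPM with NEL, 12.9-fold higher (log2 fold change 3.69 ± 0.17, adjusted p = 2.52e-10). The protease-like AZU1 rose too (log2 0.72), so 9 of 12 granule genes were higher and 3 lower. SERPINB1, an inhibitor of elastase and proteinase 3 that is counted among those 9, rose from 227 to 384 CPM (log2 0.76). Lysosomal genes rose in 26 of 50 cases and fell in 10 (median 0.17), with GUSB (121 to 214 CPM) and MANBA (35.02 to 78.8 CPM) among those that rose and MCOLN1 (log2 -0.56) among those that fell.

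Of 28 transcription factors of the lineage 11 rose (39.3%) and 9 fell (32.1%), near the background. SPI1 (PU.1) read 154, 132, 150.3 and 119 CPM with DMSO and 152, 126, 149.9 and 128 CPM with NEL, with overlapping groups and no call (log2 0.004, adjusted p = 0.968). CEBPA read 459, 428, 430.1 and 389 CPM with DMSO and 266, 239.7, 267 and 237 CPM with NEL, lower in every NEL library (log2 fold change -0.76 ± 0.057, adjusted p = 4.27e-08), and CEBPB rose from 98.3 ± 10.6 CPM with DMSO to 169 ± 14.1 CPM with NEL (log2 fold change 0.78 ± 0.075, adjusted p = 4.65e-07). GFI1, a repressor that promotes granulocyte fate, fell from 416 ± 8.57 CPM with DMSO to 218 ± 3.10 CPM with NEL (log2 fold change -0.93 ± 0.036, adjusted p = 7.25e-11). ID1 fell and BACH2 rose from low levels (6.34 to 1.91 CPM and 1.33 to 5.81 CPM). Receptors for cytokines rose in 16 of 23 cases and fell in 6, with CSF3R higher (88.5 to 161 CPM) and IL6R (327 to 170.3 CPM) and TNFRSF1A (179 to 99.02 CPM) lower.

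Cell cycle genes gave a mixed picture. S phase genes were called higher and lower 19 times each of 49 (38.8%, near the background), with a median of 0.013. CCNE2, the S phase cyclin E2, rose from 66.7 ± 2.22 CPM with DMSO to 141 ± 5.56 CPM with NEL (log2 fold change 1.08 ± 0.045, adjusted p = 1.22e-10), POLD3 rose (log2 0.79), and GINS2 (-0.86) and TIPIN (-0.72) fell. Mitotic genes fell in 34 of 58 cases and rose in 12 (median -0.18). CDC20, the activator of the anaphase-promoting complex, read 236, 209, 221 and 209 CPM with DMSO and 84.6, 74.7, 79.8 and 75.8 CPM with NEL (log2 fold change -1.47 ± 0.054, adjusted p = 4.13e-11), and KIF20A fell from 124 to 48.5 CPM (log2 -1.36). In both genes all NEL libraries were below the DMSO range. NUSAP1 (0.54) and NEK2 (0.48) rose.

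CDKN1A, the p21 inhibitor of cyclin-dependent kinases, read 7.76, 6.81, 7.56 and 7.14 CPM with DMSO and 43.5, 32.3, 40.3 and 32.1 CPM with NEL, 5.05-fold higher with no overlap (log2 fold change 2.34 ± 0.12, adjusted p = 7.46e-10). CDKN2D, another inhibitor, rose from 11.5 to 27.7 CPM, and CDKN1B (p27) fell from 195 ± 4.38 CPM with DMSO to 124 ± 4.22 CPM with NEL (log2 fold change -0.65 ± 0.040, adjusted p = 5.98e-09). Of 28 genes known as p53 targets 10 rose (35.7%) and 9 fell (32.1%), close to the background, with DDB2 higher (log2 1.12) and AEN (-1.42) and TRIAP1 (-0.999) lower. Of 40 genes of the replication stress response 17 rose and 12 fell and none changed 2-fold. EXO1, an exonuclease of repair, rose from 63.8 ± 4.54 CPM with DMSO to 118 ± 1.16 CPM with NEL (log2 fold change 0.89 ± 0.051, adjusted p = 2.86e-09), RAD51AP1 rose (log2 0.77), and the kinase ATR fell (-0.63).

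Interferon-stimulated and antigen presentation genes were mostly higher. Of 37 interferon-stimulated genes 24 rose and 7 fell (median 0.56), and of 25 antigen presentation genes 18 rose and 2 fell (median 0.54). STAT2, which carries the interferon signal, read 35.6, 39.1, 32.4 and 37.2 CPM with DMSO and 99.1, 98.3, 103 and 101 CPM with NEL, higher in all NEL libraries (log2 fold change 1.48 ± 0.056, adjusted p = 5.19e-11). RSAD2 rose from 1.04 to 5.27 CPM (log2 2.33; it overlaps CMPK2), while IFIT1 (-1.07) and IFIT3 (-0.94), which overlap LIPA, fell. HLA-DMB, which helps load peptides on class II molecules, read 1.70, 1.42, 0.889 and 1.32 CPM with DMSO and 12.3, 13.4, 13.3 and 13.4 CPM with NEL (log2 fold change 3.29 ± 0.14, adjusted p = 2.00e-10), with no overlap. HLA-DMA rose (log2 1.80), B2M rose by 1.43-fold, and CALR (-0.51) and TAP2 (-0.23) fell. Reads can be shared among HLA genes, so single values there are uncertain. The letters GAAANNGAA, a core of the interferon response element, were in 18 of 29 interferon promoters (62.1%) and in 6.52% of all tested genes.

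Inflammatory genes linked to NF-kB rose in 17 of 27 cases and fell in 6 (median 0.32). TRAF1 rose from 2.37 ± 0.24 CPM with DMSO to 11.1 ± 1.58 CPM with NEL (log2 fold change 2.22 ± 0.15, adjusted p = 1.07e-08), IL1RN, the interleukin-1 receptor antagonist, from 5.46 ± 1.22 CPM with DMSO to 22.2 ± 1.98 CPM with NEL (log2 fold change 2.02 ± 0.13, adjusted p = 6.77e-09), and TNF fell from 6.30 ± 0.607 CPM with DMSO to 2.53 ± 0.436 CPM with NEL (log2 fold change -1.31 ± 0.15, adjusted p = 2.68e-06). Of 24 AP-1 and early response genes 7 rose and 11 fell. FOSL2 read 48.3, 44.5, 47.2 and 47.1 CPM with DMSO and 191, 181, 190.3 and 180.4 CPM with NEL (log2 fold change 1.99 ± 0.044, adjusted p = 4.17e-13) and FOSL1 read 24.1, 20.1, 23.6 and 18.9 CPM with DMSO and 4.67, 3.74, 4.70 and 3.65 CPM with NEL (log2 fold change -2.37 ± 0.12, adjusted p = 9.15e-10). The 2 paralogues thus separated the groups in opposite directions. Of 16 genes that report ERK signalling 9 fell and 5 rose, with PHLDA1 higher (log2 1.52), and DUSP2, a MAP kinase phosphatase outside that list, was among the 10 largest falls under the same limits (8.96 to 2.30 CPM).

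Of 21 BCL2 family and caspase genes 8 rose (38.1%) and 6 fell (28.6%), near the background. BCL2A1, which opposes cell death, rose from 66.3 ± 2.88 CPM with DMSO to 165 ± 10.9 CPM with NEL (log2 fold change 1.31 ± 0.054, adjusted p = 1.17e-10), and so did BMF, which promotes it (21.6 to 60.6 CPM, log2 1.49), while HRK (-1.68) and BID (-0.80) fell. Autophagy genes were called higher and lower 9 times each of 29 (31.0%), also near the background, with OPTN, a cargo receptor, higher by 3.95-fold (log2 fold change 1.98 ± 0.074, adjusted p = 4.88e-11) and ATG3 lower (log2 -0.79). Of 12 genes of a list of DNA methylation, its removal and isocitrate dehydrogenase 7 rose and 4 fell. TET2 was higher (16.3 to 30.4 CPM) and TET3 lower (log2 -0.40). IDH2, counted among the 7, is also in the citric acid cycle list.

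The largest relative gains were in genes close to 0 with DMSO. SPP1 (osteopontin) read 0.0892, 0.265, 0 and 0.0881 CPM with DMSO and 10.2, 11.1, 9.04 and 9.08 CPM with NEL (log2 fold change 6.34 ± 0.29, adjusted p = 3.08e-10), and JPH2 had 1 read over the 4 DMSO libraries and 265 with NEL, a ratio of 273 (95% exact counting interval 48.6 to 10830). Fitted values of such genes depend on a prior count. MMP1, a collagenase, read 5.35, 6.72, 5.16 and 8.11 CPM with DMSO and 119, 135, 118 and 133 CPM with NEL, 19.9-fold higher (log2 fold change 4.31 ± 0.099, adjusted p = 4.92e-13). CD52 read 1.87, 1.42, 1.87 and 0.705 CPM with DMSO and 48.2, 39.6, 41.9 and 33.2 CPM with NEL (log2 4.79; it overlaps UBXN11). The others among the 10 largest rises under those limits (called, no overlap, at least 5 CPM with NEL) were CEACAM6, PLXNB2, CA6, ADGRG3 and SIRPG, with mean levels of 6.03 to 14.8 CPM with NEL, beside ITGAX. Among the 10 largest falls of genes without overlap and with at least 5 CPM in the higher group, MYC had the highest DMSO level, and ACTL8 (6.43 to 1.14 CPM), KCTD12 (5.65 to 1.03 CPM) and ADM5 (6.72 to 1.70 CPM) fell from low levels. ARL10 fell by 3.83-fold and overlaps NOP16 on the opposite strand. Per unit of transcript length (RPKM), the losses were led by mitochondrially encoded genes and FTL, and the gains by SRGN, CST7, TMSB10, B2M, RRM2, PLP2, FTH1 and TPSAB1. SRGN, the core protein of granule proteoglycan, went from 1171 to 1970 RPKM. TPSAB1 has near-identical tryptase copies.

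Whether a gene responded otherwise in U937 than in KG1A was tested as the interaction of line and NEL over all 16 libraries and 16117 genes. The NEL effect was more positive in U937 for 3404 genes (21.1%) and more negative for 4239 (26.3%) in edgeR's quasi-likelihood test. In the hypoxia list 21 of 22 genes were more positive in U937, and the list's median was 1.74 in U937 and -0.072 in KG1A. HK2 carried the same contrast: it went from 243 to 236 CPM in KG1A (log2 -0.046 ± 0.036, adjusted p = 0.330), and the difference between the lines was 1.76 ± 0.051 (adjusted p = 1.84e-16). In the chaperone list 31 of 33 were more negative in U937 (medians -0.82 and 0.063), and in the proteasome list 25 of 30 (-0.53 and 0.0022). In the MYC and ribosome biogenesis list 39 of 46 were more negative in U937 (-1.11 and -0.12). Antigen presentation genes were more positive in U937 in 16 of 25 cases (medians 0.54 and -0.11).

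**Figure D4:**
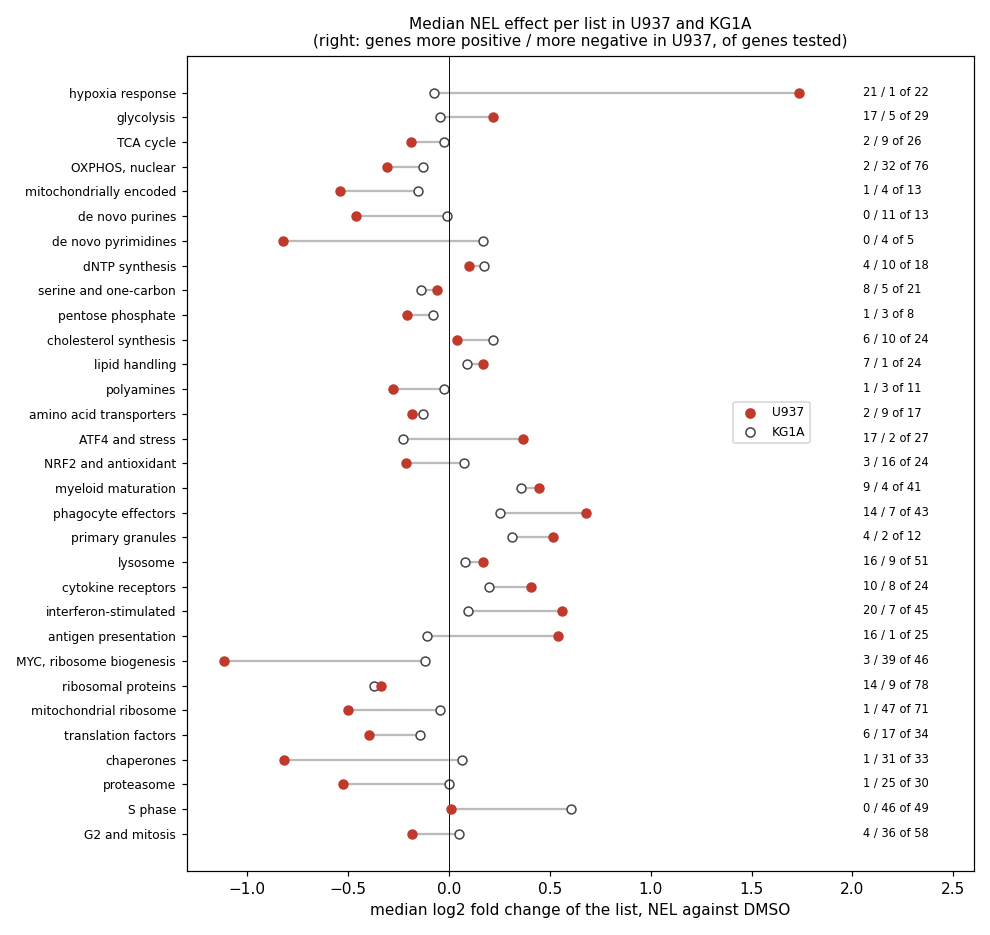
Median log2 fold change of NEL against DMSO (x axis) per gene list (rows) in U937 (red) and KG1A (open), with the number of genes more positive and more negative in U937 of those tested at the right. Among the lists drawn the widest gaps are in the hypoxia list (1.74 and -0.072) and in de novo pyrimidine synthesis, MYC and ribosome biogenesis, and chaperones. Ribosomal proteins have similar medians (-0.33 and -0.37).

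MYC fell in both lines but further in U937, where the difference was -2.04 ± 0.050 (adjusted p = 1.99e-17). Of the S phase genes, 46 of 49 were also more negative in U937, with medians of 0.0094 there and 0.61 in KG1A. RRM1 rose more in KG1A (difference -0.53 ± 0.051, adjusted p = 1.99e-08), and RRM2 slightly more in U937 (0.17 ± 0.048, adjusted p = 0.00539). ITGAX rose more in U937 (2.58 ± 0.17, adjusted p = 3.81e-11), from 2.96 to 8.502 CPM in KG1A. ITGAM rose in both, and the difference of 0.28 ± 0.18 was not called (adjusted p = 0.220). Maturation genes were more positive in U937 in 9 of 41 cases and more negative in 4, which is near the background share for the first and under it for the second. CDKN1A rose more in U937 (0.71 ± 0.23, adjusted p = 0.0121), a call lost without the first KG1A DMSO library (adjusted p = 0.0725). For ODC1 (-0.11 ± 0.063, adjusted p = 0.157, but 0.0118 with the replicate block) and SAMHD1 (-0.22 ± 0.16, adjusted p = 0.368) the effects in the lines were not called different.

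The 8 largest line differences by the naming rule were in genes near 0 in a group. SPP1 went from 0.302 to 0.986 CPM in KG1A, and APLP1, SLC14A1 and CEACAM6, which rose in U937, had 9, 4 and 1 reads over the 8 KG1A libraries. On the negative side OLFML2A, PACSIN3 and PTPRU had no KG1A DMSO read and 23, 17 and 7 with NEL. Against 3 reads over the group, OLFML2A was at least 7.75-fold higher, PACSIN3 at least 5.73-fold and PTPRU at least 2.36-fold higher there. ADCY9 went from 1 to 15 reads, a ratio of 15.2 (95% exact counting interval 2.33 to 639). In U937 ADCY9 (log2 -0.29) and PACSIN3 (-0.35) fell slightly and OLFML2A rose (0.66).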

How the data were processed

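Polyadenylated RNA of U937 cells was counted in 4 NEL and 4 DMSO libraries, with KG1A used for the difference between the lines. The submitters' processing notes name TopHat2, HTSeq 0.11.2 and bcl2fastq 2.18.0.12, and the build hg19 (GRCh37). Which annotation and strand setting were used is not stated in the labels. The authors deposited raw read counts per gene and RPKM values (counts per exon length and library total), and the counts were tested. Of 34618 gene IDs, 32562 matched a symbol, and the rest held 0.878% of all reads.

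Tests used edgeR 4.0.16 in R 4.3.3 (quasi-likelihood, TMM, minimum count 10, minimum total 15), and p-values were adjusted by Benjamini-Hochberg over all genes and called under 0.05. Standard errors (SE) are the absolute log2 fold change divided by the root of F. Total counts of 10641567 to 11777684 per library limit the precision of genes of few reads. Ratios against 0 reads used 3 reads over the group. The code was tested on simulated data. Members and gene lists were chosen with earlier results of these data known, and lists were described by counts and medians, without a list test. Named were a fixed set of genes, the 10 largest log2 fold changes each way among called genes without overlap and with at least 5 CPM in the higher group, the 8 largest RPKM changes each way, the 2 largest called each way in each list and the 4 largest line differences each way, and a few of these genes are not reported here. Promoter letters were searched in RefSeq windows (GRCh38.p14), and of the windows' starts checked, 7502 of 9845 opened inside a GENCODE transcript in sense and 0 in antisense. Alternatives were other scaling factors, filters, DESeq2 1.42.0, limma 3.58.1, thresholds, left-out libraries, library sets and a replicate block. Figures used Python 3.11.15 and matplotlib 3.10.9.

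The labels number the libraries 1 to 4 in each group. Deviations from the group means of same-numbered DMSO and NEL libraries correlated across genes (r = 0.436, 0.375, 0.389 and 0.438), a pairing that comes from the data and not from the labels. The tests reported have no block unless one is named, and the fit with the number as a block was an alternative. Pairs of the same set with other numbers correlated as much (0.378 to 0.469) and pairs across sets negatively (-0.377 to -0.467), so the numbers and the sets cannot be told apart.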

Additional observations from a re-analysis of the deposited data

Results flagged for a closer look

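Of 466 groups of 4 libraries (2 per named gene), 15 held a library far from the other 3, and chance flags about 1 in 20 groups. With DMSO these were library 3 for ADM (2.40 CPM), CDKN2D (9.78), JPH2 (0.0889), MXD1 (14.9) and TNF (7.20), library 1 for PLXNB2 (0.446), and library 4 for RRM1 (253.9) and VARS1 (232). With NEL they were library 1 for ADA (142) and HLA-DMB (12.3), library 2 for LDHA (1254), library 3 for RSAD2 (3.74), and library 4 for IDH2 (397), KIF20A (44.0) and PFAS (32.6).

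The NEL effect differed between the lines, by the interaction test, in 14 of 17 genes examined. The 4 largest differences each way entered this set from among called genes, so their calls were set by the choice. Over all 16117 genes 21.1% were called more positive in U937 and 26.3% more negative. As log2 differences, U937 minus KG1A, the 14 were HK2 (1.76), ITGAX (2.58), CDKN1A (0.715), RRM2 (0.171), CEACAM6 (6.42), SLC14A1 (5.78), APLP1 (4.89) and SPP1 (4.66) on the positive side. MYC (-2.04), RRM1 (-0.534), ADCY9 (-3.63), PTPRU (-4.39), OLFML2A (-4.90) and PACSIN3 (-5.49) were on the negative side. The fitted differences of CEACAM6, SLC14A1, APLP1, ADCY9, PTPRU, OLFML2A and PACSIN3 rest on KG1A groups with 0 or 1 read and are no bounds.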

How the results depend on the processing

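The counts of 4985 higher and 4993 lower genes stayed within 1.5 times under every alternative run except the demand for at least 2-fold, which left 1252 higher and 510 lower. They were 5404 and 5467 with the replicate block, 5426 and 5487 with a term for the library set, 4777 and 4836 in libraries 1 and 3 alone, and 4755 and 4784 in libraries 2 and 4 alone. Leaving out each library in turn gave 4812 to 4922 higher and 4807 to 4949 lower. DESeq2 gave 4735 and 4742, and limma-voom 4970 and 4971. Upper quartile scaling gave 5513 and 4432, and limma-trend on log2(RPKM + 0.5) 5738 and 4025, which raised the share of calls that were higher from 50% to 55.4% and 58.8%. No named gene and no line difference changed direction. Of 233 named genes 10 crossed the threshold under some alternative: ADCY9, ARRDC2, ASNS, EPOR, MT-CO1, MT-CO2, MT-CO3, PFKFB3, TAP2 and TM7SF2. Of 2640 counts of called genes per list and alternative, 159 moved by over 1.5 times: 96 with the demand for at least 2-fold, 25 with limma-trend on RPKM, 7 with upper quartile scaling, 5 with 1 library left out (given above) and 26 with the others. The block cost no call of a named gene, and it moved 4 list counts, for mitochondrially encoded genes and lipid handling as given above and, from 1 to 2 each, for genes related to TXNIP that rose and progenitor genes that fell. The call of MT-CO1 was lost without DMSO library 1 or 3, or without NEL library 2 or 4, with upper quartile scaling and with limma-trend. CEACAM6 lost its line difference without the fourth KG1A DMSO library, and ODC1 gained one with the block or the set term. The cause of these shifts was not tested. Depth limits genes of few reads: a library with 0 reads allows up to 0.269 CPM.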

Other observations

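Markers of other cell types were few but not all at 0. CD79A, part of the B cell receptor complex, read 1.96, 1.06, 1.16 and 1.94 CPM with DMSO and 7.18, 4.68, 8.26 and 6.19 CPM with NEL, higher in all NEL libraries (log2 fold change 2.09 ± 0.23, adjusted p = 2.08e-06). EBF1, a B lineage transcription factor, rose from 2.73 to 8.33 CPM (log2 1.61), while VPREB1 had 0 reads in all 8 libraries. Of 11 stromal and epithelial markers COL1A1 (1.33 to 6.48 CPM) and PDGFRB (log2 2.17) rose, their list summed to 1.65 to 2.40 CPM with DMSO and 8.31 to 9.94 with NEL, and KRT18, KRT19, COL3A1 and LUM were at 0. Of the erythroid genes, EPOR (log2 -0.31) and KLF1 (-1.48) fell and GP1BA rose (0.72). Among progenitor genes CD82 rose from 21.9 ± 2.00 CPM with DMSO to 122 ± 11.6 CPM with NEL (log2 fold change 2.48 ± 0.079, adjusted p = 1.28e-11). CD38 rose from 22.1 to 64.7 CPM (log2 1.55), and MEIS1 fell (-0.24). The other 3 of the 6 tested, HOXA9 (-0.072), MYB (-0.062) and GATA2 (0.43), were not called. HOXA9 overlaps HOXA10-AS, MYB overlaps MYB-AS1 and GATA2 overlaps GATA2-AS1 on the opposite strand, so their values are uncertain. CD34, KIT, FLT3, PROM1, ERG and SPINK2 did not pass the filter.

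Other promoter letters, counted over the same windows on both strands, were as follows. CCAAT was in 39 of 49 promoters of mitotic genes (79.6%), against 36.4% of 10344 tested genes. The E2F letters TTTGGCGC or TTTCCCGC were in 18 of 41 S phase promoters (43.9%), against 3.78%. The letters GAAANNGAA were in 12 of 19 antigen presentation promoters (63.2%), against 6.52%, and in 8 of 30 maturation promoters (26.7%). GAGGAAGT, a form of the PU.1 site, was in 2 of 30 maturation promoters (6.67%), against 2.77%, and TGATGCAA, an ATF4 composite site, in 2 of 22 promoters of the ATF4 list (9.09%), against 0.551%. TGACGTCA was in 3.31% of all tested genes and in 10.2% of mitotic promoters. The E-box was in 12.7% of promoters of genes called lower and in 8.28% of those called higher. No test was made of these shares.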
